A study of Mus musculus with 9 samples.

Results

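The SR proteins are splicing factors that carry an RNA-recognition motif and a domain rich in arginine and serine, and they bind exonic enhancers to promote exon use. Many of their own genes hold a poison exon, an alternative exon (or a spliced 3' UTR segment) whose inclusion places a stop codon upstream of an exon junction. Translation of such a transcript ends early and the RNA becomes a substrate of nonsense-mediated mRNA decay (NMD), so that an SR protein can limit its own mRNA. UPF1 is the RNA helicase at the centre of NMD, and its phosphorylated form (p-UPF1) marks RNAs on which decay factors assemble. The 10 genes described here were those of the count table whose NCBI Gene ID belongs to Srsf1, Srsf2, Srsf3, Srsf4, Srsf5, Srsf6, Srsf7, Srsf11, Tra2a or Tra2b, out of 27179 genes in the table. All 10 passed the filter on low counts, which left 13129 genes tested.

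RNA immunoprecipitation sequencing (RIP-seq) recovers and sequences the RNA that is precipitated with a protein. B cells of wild-type mouse spleen were taken as the CD43- fraction and activated for 72 h with CD40L (5 ug/mL), anti-IgM (10 ug/mL) and IL-4 (20 ng/mL), per the labels. The study's methods name an anti-CD40 antibody in place of CD40L. All 3 groups came from this same kind of cell and differed only in the RNA fraction: 3 Input libraries of lysate RNA, 3 IgG libraries of RNA brought down by normal rabbit IgG, and 3 p-UPF1 libraries of RNA brought down by an antibody against phospho-UPF1. The labels do not say whether the 3 libraries of a group came from separate animals or cultures, so the p-values measure the spread between these libraries, which may be technical. The study's methods call the data points in its graphs independent biological replicates. They also say that part of the lysate was kept as input and the rest was incubated with either antibody. Which Input, IgG and p-UPF1 libraries shared a lysate was not given, and the main fit did not pair them. These are mature, activated B cells, and the data bear on no other B cell stage. Since cells were pooled, how many cells held a transcript and how much each held cannot be told apart.

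Total counts ranged from 17372510 to 24945286 per library, and the 10 SR genes had between 1680 and 12582 counts each in every library. The B cell markers Cd79a, Cd79b, Ms4a1, Cd22 and Pax5 had at least 721 counts in every library, and Cd79b had a mean of 1229 CPM (counts scaled to the size of the library) in Input against 775 for IgG and 579.7 for p-UPF1. The T cell markers summed to at most 0.593 CPM and both erythroid markers were at 0. Of the 4 myeloid markers, Adgre1 (mean 131 CPM in Input against 89.3 for IgG and 57.8 for p-UPF1) made up nearly all of the summed level of 54.4 to 137 CPM, and Lyz2, Itgam and Csf1r had at most 10 counts in any library. The plasma cell markers Sdc1, Prdm1 and Xbp1 summed to 127 to 131 CPM in p-UPF1, 227 to 268 in IgG and 267 to 274 in Input. Xbp1 made up most of that sum (mean 254 CPM in Input against 116 for p-UPF1), while Sdc1, at 3.88 CPM for Input and 2.33 for IgG, was higher in p-UPF1 at 9.32 CPM. The myeloid and plasma cell sums and Cd79b were lower in p-UPF1, Sdc1 was not, and the part of these markers in the results for the SR genes was not tested. Among the IgG libraries, library A stood somewhat apart: it was the highest of the 3 for 8 of the 10 SR genes, and the values over IgG are also given without it.

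The gene counts pool productive and poison-exon transcripts, so they hold no value for any exon. What the annotation places in these genes is shown first, because it defines the stretch through which a ribosome would reach the premature stop. In GENCODE M21 (mm10), every one of the 10 genes had at least 1 transcript annotated as an NMD substrate, from 1 in Srsf5, Srsf6, Srsf7 and Tra2a to 3 in Srsf11 and Tra2b. Retained-intron transcripts numbered 1 to 4 per gene except in Srsf11, which had 11 of 19. In 7 genes (Srsf3, Srsf4, Srsf6, Srsf7, Srsf11, Tra2a and Tra2b) the NMD transcript carried an extra exon that the principal transcript lacks. These exons ranged from 109 bases, the shorter of 2 such exons in Srsf11, to 460 bases in Srsf7. In Srsf5 an exon began early, inside the intron before it, and was 266 bases long in all. In Srsf1 the final exon of the principal transcript was spliced once more, which put the premature stop in what is otherwise 3' UTR, and in Srsf2 the normal stop codon was followed by an extra junction in the 3' UTR. For the extra exons and for Srsf5, the sequence from the start of the exon to its premature stop codon is given below, 5' to 3' in the sense of the gene, read from the RefSeq GRCm38.p6 assembly, with the stop codon in capitals.

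Srsf3, Srsf3-201, chr17:29039454-29039487, + strand: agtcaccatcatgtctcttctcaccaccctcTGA
Srsf4, Srsf4-203, chr4:131884276-131884390, + strand: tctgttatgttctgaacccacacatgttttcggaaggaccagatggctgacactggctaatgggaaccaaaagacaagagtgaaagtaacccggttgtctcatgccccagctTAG
Srsf5, Srsf5-208, chr12:80947116-80947130, + strand: ggcttctctgtaTAG
Srsf6, Srsf6-201, chr2:162932815-162932966, + strand: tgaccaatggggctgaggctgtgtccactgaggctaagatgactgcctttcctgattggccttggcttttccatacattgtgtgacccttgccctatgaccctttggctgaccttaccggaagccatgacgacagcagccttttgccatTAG
Srsf7, Srsf7-203, chr17:80205054-80205081, - strand: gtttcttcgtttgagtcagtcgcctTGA
Srsf11, Srsf11-206, chr3:158024209-158024231, - strand: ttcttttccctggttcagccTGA
Srsf11, Srsf11-212, chr3:158023310-158023359, - strand: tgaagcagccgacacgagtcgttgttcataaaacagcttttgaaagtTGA
Tra2a, Tra2a-202, chr6:49252965-49253108, - strand: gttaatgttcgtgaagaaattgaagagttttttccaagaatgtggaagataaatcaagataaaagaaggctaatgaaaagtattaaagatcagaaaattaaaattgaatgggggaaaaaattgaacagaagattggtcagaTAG
Tra2b, Tra2b-206, chr16:22259181-22259261, - strand: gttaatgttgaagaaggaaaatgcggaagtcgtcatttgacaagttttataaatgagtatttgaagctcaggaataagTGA

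The open stretch was short, at 15 bases in Srsf5, 23 in the first Srsf11 exon, 28 in Srsf7 and 34 in Srsf3, and longest in Srsf6 at 152 bases. In each of these exons the annotated reading frame was open up to the capitalised stop. The exons of Tra2a (306 bases) and Tra2b (276 bases) opened with the same 9 bases, gttaatgtt, and their stops lay 144 and 81 bases into the exon. The Srsf6 exon and the extended Srsf5 exon were exons of GENCODE with no exon of the same ends in RefSeq, while the extra exons of the other 6 genes were in both.

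The first question of the design was which RNAs were recovered by p-UPF1 beyond the nonspecific antibody and beyond their level in the lysate. None of the 10 SR genes met the study's criterion for a p-UPF1 target, which asks for a minimum log2 fold change of 1 against IgG and of 2 against Input, both with adjusted p-values below 0.05. Of all genes tested, 820 (6.25%) met it. Over IgG, 4 SR genes were higher in p-UPF1 (Tra2b, Srsf4, Srsf11 and, with a sign that changed under other scalings, Srsf3), 5 were lower (Srsf5, Srsf2, Srsf1, Srsf6 and Srsf7) and Tra2a was not called (edgeR quasi-likelihood test, p-values adjusted by Benjamini-Hochberg over all genes tested). Among all genes tested, 40.4% were higher and 42.2% lower in this comparison, so counts of this size were near those of genes at large. Over Input the same 4 genes were higher and the same 5 were lower, against 40.8% and 42.6% of all genes tested. Over IgG the log2 fold changes of the 10 genes had a median of -0.20, where that of all genes tested was -0.03, and over Input the median was -0.18, where that of all genes was again -0.03. The same p-UPF1 libraries enter both comparisons. In p-UPF1 against IgG the 3 libraries of each group did not overlap for any of the 10 genes, 5 lying higher and 5 lower, where 40.6% of all genes lay higher without overlap and 41.5% lower. Against Input 4 lay higher and 5 lower without overlap (43.2% and 45.0% of all genes tested). As a share of all counts, the 10 genes together took 0.199% ± 0.00405 of the p-UPF1 libraries, 0.306% ± 0.0178 of the IgG libraries and 0.255% ± 0.00375 of the Input libraries (SD, n = 3).

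**Figure D1:**
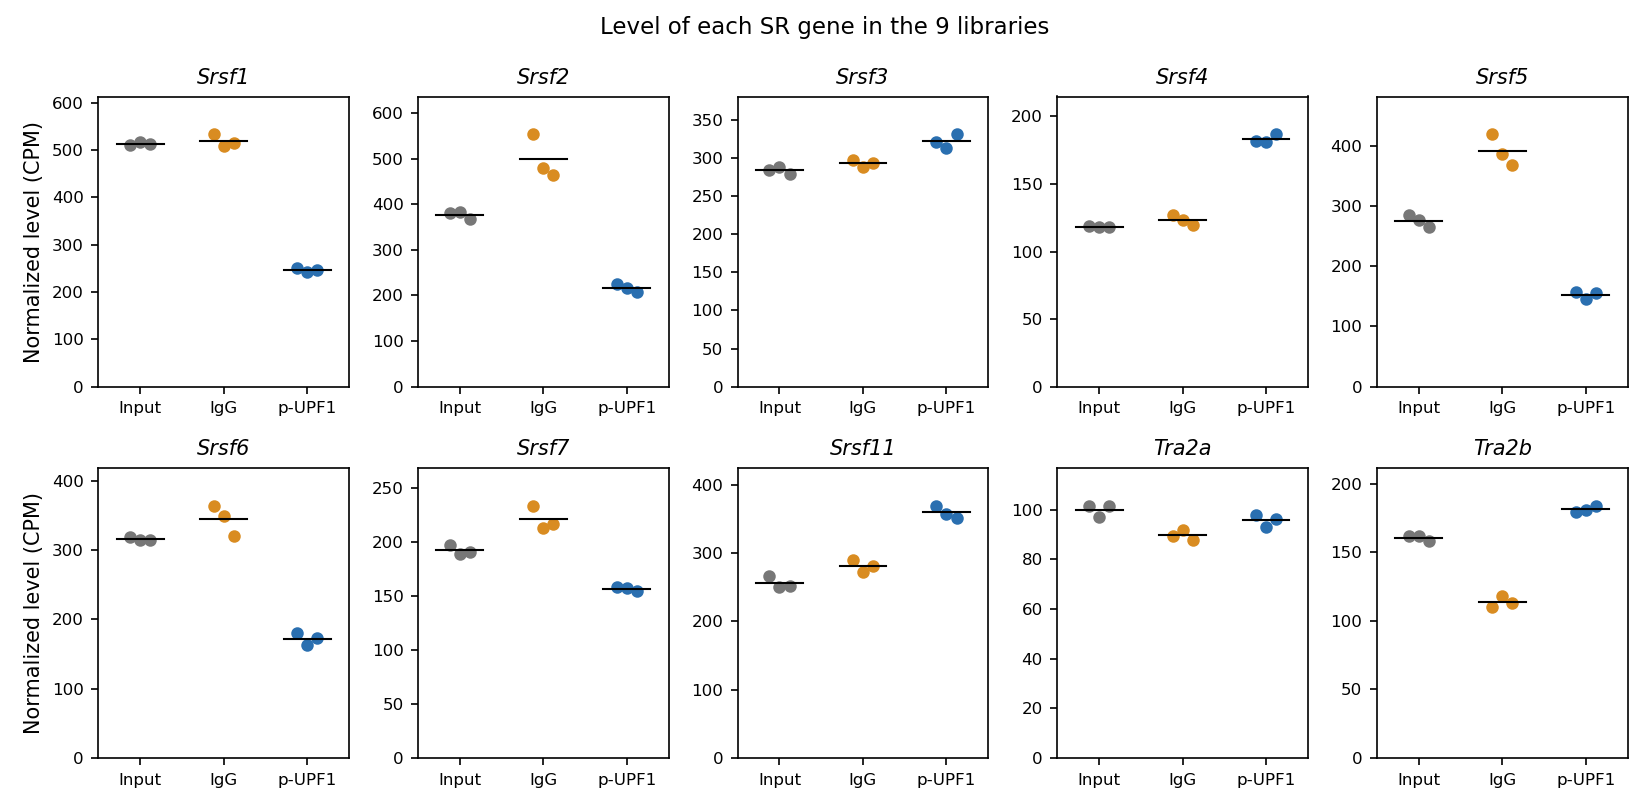
Normalized level (TMM-scaled CPM, y axes from 0) of each SR gene in every Input, IgG and p-UPF1 library; points are libraries and bars are group means. Srsf1, Srsf2, Srsf5 and Srsf6 sit far lower in p-UPF1 than in the other groups, while Srsf4 and Srsf11 sit above both.

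Levels below are CPM scaled by TMM factors. Tra2b, a homologue of the fly splicing regulator transformer-2, had the largest increase over IgG. Its level was 184, 181 and 180 CPM in p-UPF1, 113, 118 and 110.2 CPM in IgG, and 158, 162 and 162 CPM in Input. The p-UPF1 libraries were thus above both other groups without overlap, and the IgG libraries lay below Input. The log2 fold change was 0.67 over IgG (SE 0.0403, edgeR adjusted p = 1.03e-10) and 0.18 over Input (adjusted p = 0.000627). Most of the distance between p-UPF1 and IgG for Tra2b therefore lay in the IgG libraries, whose log2 fold change over Input was -0.50 (adjusted p = 6.17e-08).

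Srsf4, which like Srsf5 and Srsf6 has a pair of RNA-recognition motifs, was the gene with the largest increase over Input. It was at 187, 181 and 182 CPM in p-UPF1, 119.6, 123 and 127 CPM in IgG, and 118, 118 and 119 CPM in Input. The IgG libraries lay just above Input, and all p-UPF1 libraries were well above both. The log2 fold changes were 0.57 over IgG (SE 0.0394, edgeR adjusted p = 6.84e-10) and 0.63 over Input (adjusted p = 1.56e-10), the second being higher than in 68.5% of all genes tested. Exons of Srsf4 overlap those of Gm12992, a gene of the opposite strand, over 1551 bases. If counting ignored strand, the reads of the 2 genes cannot be told apart there.

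Srsf11, an SR-like protein also known as p54, was at 352, 358 and 369.6 CPM in p-UPF1, 281, 273 and 289 CPM in IgG, and 252, 249.9 and 266 CPM in Input. The log2 fold change of Srsf11 was 0.36 over IgG (SE 0.0407, edgeR adjusted p = 4.68e-07) and 0.49 over Input (adjusted p = 7.37e-09). Srsf3, the smallest of the SR proteins, was at 331, 313 and 321 CPM in p-UPF1, 293, 287 and 297 CPM in IgG, and 279, 288 and 284 CPM in Input. No p-UPF1 library of Srsf3 fell within the range of the others, but the shift was small, with log2 fold changes of 0.14 over IgG (edgeR adjusted p = 0.00323) and 0.18 over Input (adjusted p = 0.000294). The sign of the first depended on scaling: it was -0.03 with library size alone and -0.0005 with upper-quartile factors. Under library size alone the median of all genes moved to -0.19 over IgG, and relative to that median Srsf3 was higher under all 20 alternatives, by 0.14 to 0.18. RefSeq also lists a pseudogene named for Srsf3, Srsf3-ps, whose sequence could share reads with it.

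Tra2a, the relative of Tra2b, was the SR gene with the least movement. It stood at 96.2, 92.9 and 97.8 CPM in p-UPF1, 87.7, 91.9 and 89.3 CPM in IgG, and 102, 96.8 and 101 CPM in Input. Its p-UPF1 libraries lay just above IgG and overlapped Input. The log2 fold change over IgG was 0.09 (edgeR adjusted p = 0.0581) and that over Input was -0.06 (95% confidence interval -0.16 to 0.03, adjusted p = 0.183). Neither passed the threshold. The value over IgG was negative with library size alone and with upper-quartile factors, and it passed in 8 other alternatives, at an edgeR adjusted p down to 0.0169. The median of all genes over IgG moved to -0.19 and -0.17 under the first 2 scalings. Relative to the all-gene median, Tra2a was higher over IgG under all 20 alternatives, by 0.09 to 0.14.

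Of the 5 genes that were lower in p-UPF1, 4 changed by more than any gene that was higher. Srsf5 changed most over IgG: it was at 155, 145 and 157 CPM in p-UPF1, 368, 386 and 419 CPM in IgG, and 265, 277 and 285 CPM in Input. All 3 groups were apart, with IgG highest and p-UPF1 lowest. The log2 fold change was -1.36 over IgG (SE 0.0516, edgeR adjusted p = 2.41e-13) and -0.85 over Input (adjusted p = 1.05e-10), so part of the first value was the higher recovery in IgG, 0.51 over Input (adjusted p = 5.26e-07).

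Srsf2, known as SC35 and used as a marker of nuclear speckles, followed the same order. It was at 208, 217 and 224 CPM in p-UPF1, 464, 479.8 and 553.5 CPM in IgG, and 368, 383 and 381 CPM in Input. The IgG libraries spread most for this gene (SD 47.7 CPM), with library A highest. The log2 fold changes were -1.21 over IgG (SE 0.0566, edgeR adjusted p = 4.01e-12) and -0.80 over Input (adjusted p = 8e-10). Srsf2 shares 565 exonic bases with Mfsd11 on the opposite strand, so its reads could be mixed with those of that gene if strand was not used.

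Srsf1, the founding member of the family (SF2/ASF), was at 246.5, 242 and 251 CPM in p-UPF1, 515.5, 509 and 533 CPM in IgG, and 512.5, 518 and 510.2 CPM in Input. IgG and Input overlapped, and p-UPF1 was 2.1-fold lower than each. The log2 fold change was -1.08 over IgG (SE 0.0364, edgeR adjusted p = 5.2e-14) and -1.06 over Input (adjusted p = 5.2e-14), the lowest of the 10 genes over Input. Srsf6, a further SR protein with a pair of RNA-recognition motifs, was at 172.5, 163 and 181 CPM in p-UPF1, 319.5, 349 and 364 CPM in IgG, and 315, 314 and 319 CPM in Input. Its log2 fold change was -1.0 over IgG (edgeR adjusted p = 1.02e-11) and -0.88 over Input (adjusted p = 5.11e-11). Srsf7, which has a zinc knuckle and is otherwise close to Srsf3, was the least changed of the 5, at 154, 158 and 158 CPM in p-UPF1, 216, 213 and 234 CPM in IgG, and 190.4, 189 and 198 CPM in Input. Its log2 fold change was -0.50 over IgG (edgeR adjusted p = 1.66e-08) and -0.29 over Input (adjusted p = 9.21e-06). Without IgG library A the same 4 genes were higher and the same 5 lower over IgG, with values such as -1.13 for Srsf2, -1.30 for Srsf5 and 0.65 for Tra2b.

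**Figure D2:**
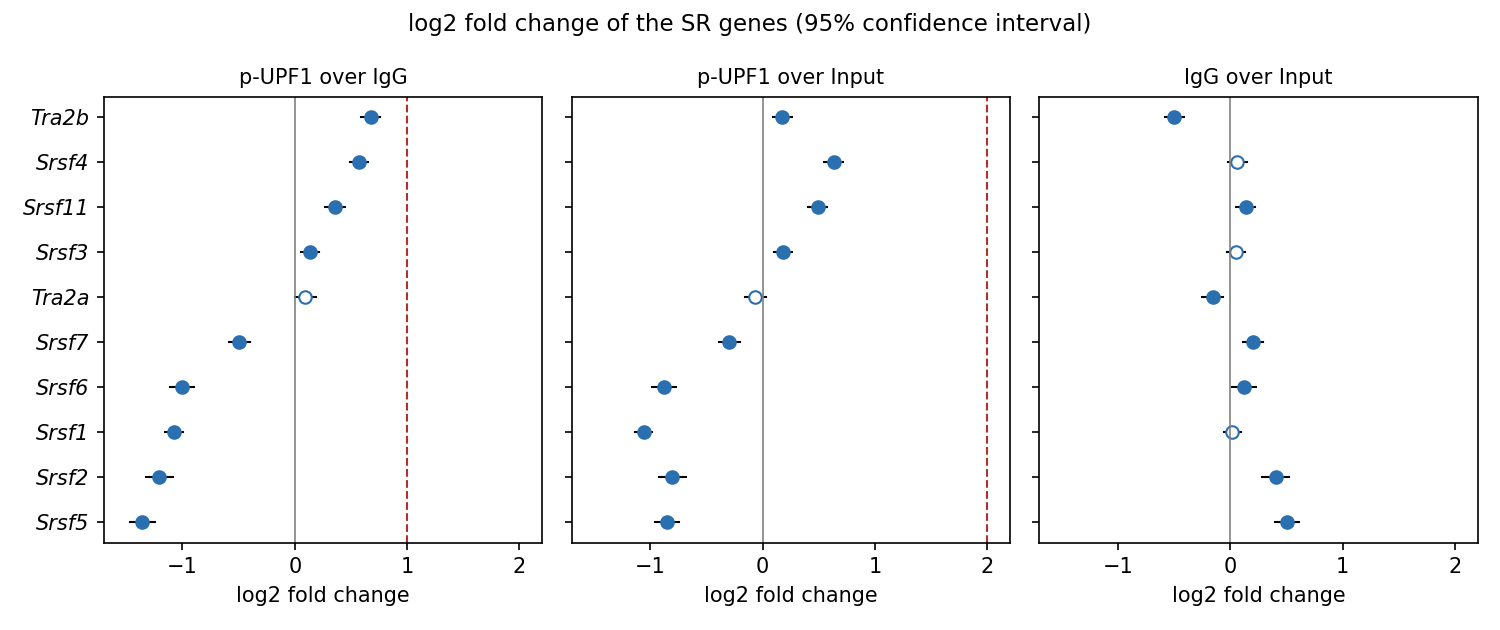
log2 fold change (x axes) of the 10 SR genes (y axis, ordered by p-UPF1 over IgG) in the 3 comparisons, with 95% confidence intervals; filled points passed an adjusted p of 0.05 and red dashed lines mark the minimum fold changes of the target criterion. No gene reaches the line of 1 over IgG or of 2 over Input, and Srsf5 (-1.36), Srsf2 (-1.21), Srsf1 (-1.08) and Srsf6 (-1.0) lie lowest over IgG.

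The kind of annotated poison exon was set beside these values after they were seen, as a description. Of the 7 genes with an extra exon, 4 were higher in p-UPF1 over IgG, 2 were lower (Srsf6 and Srsf7) and Tra2a was not called. One of the higher genes, Srsf3, was not called over IgG with library size alone, upper-quartile factors or an Input library as TMM reference. The 3 genes without an extra exon, Srsf1, Srsf2 and Srsf5, were all lower. The counts over Input were the same in both groups of genes. With 40.4% of all genes tested higher and 42.2% lower over IgG, counts over so few genes are given as a description and nothing is read from them.

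The IgG precipitate itself differed from Input for most of these genes, which gives the background against which p-UPF1 was read. By the same edgeR test, 5 SR genes were higher in IgG (Srsf5, Srsf2, Srsf7, Srsf11 and Srsf6, with log2 fold changes of 0.51, 0.40, 0.20, 0.13 and 0.12), 2 were lower (Tra2b and Tra2a, -0.50 and -0.16) and 3 were not called (Srsf1, Srsf3 and Srsf4). Of all genes tested 18.2% were higher and 34.7% lower. The adjusted p of Srsf6 was 0.0466 and it missed the threshold when any of 7 single libraries was left out. Srsf11 was not called without Input library B or C (edgeR adjusted p = 0.0818 and 0.0797). Under 6 alternatives (library size alone, upper-quartile factors, an Input or IgG library as TMM reference, no low-count filter, and only the compared groups fitted) Tra2a was not called, at -0.09 to -0.04 (adjusted p = 0.108 to 0.451), while Srsf3 and Srsf4 were called higher, at 0.12 to 0.16 and 0.13 to 0.18. Srsf1 was called higher under 4 of these, at 0.12 to 0.13, and not with upper-quartile factors or without the filter. Without overlap, 6 of the 10 genes lay higher in IgG and 2 lower (19.6% and 38.5% of all genes tested). The median was 0.09 for the 10 genes against -0.10 for all genes tested, and counts of calls in this comparison moved with scaling: with library size alone 8 SR genes were higher and 1 (Tra2b) lower. The median of all genes moved too, to 0.0134 with library size alone. Relative to the all-gene median, each of the 10 genes kept its direction under all 20 alternatives. Tra2b was lower in IgG under every alternative run, at -0.53 to -0.38.

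Levels of different genes were compared per kb of annotated exon. In Input, Srsf5 was highest at 165 ± 5.97 CPM per kb (SD, n = 3). Srsf2 (106.5), Srsf3 (93.3), Srsf6 (89.1), Srsf1 (79.8) and Srsf7 (68.4) followed, and Tra2b (43.7), Tra2a (37.0), Srsf11 (35.4) and Srsf4 (26.5) were lowest. Of neighbours in this order, Tra2a (35.9 to 37.7 CPM per kb) and Srsf11 (34.6 to 36.8) overlapped and did not differ beyond their spread, and the others did not overlap. The order depended on the length used. With the longest transcript Srsf1 stood above Srsf6, and Srsf11 (44.2 CPM per kb) stood beside Tra2b (43.7) and above Tra2a (38.2), so the overlap of Tra2a and Srsf11 held only for the first length. The 4 genes with the lowest Input level per kb comprised 3 of the genes that were higher in p-UPF1 and Tra2a, and Srsf3 was the exception among the 6 more abundant genes. Over the 10 genes Spearman's correlation of Input level per kb with the log2 fold change over IgG was -0.78, and over the 12828 tested genes with a RefSeq exon length it was -0.30. The same correlation of exon length with that fold change was 0.44 over the 10 genes and 0.31 over all genes. With the fold change over Input, level and length gave -0.648 and 0.236 over the 10 genes, against -0.334 and 0.355 over all genes. For IgG over Input the values were 0.479 and -0.285 over the 10 genes, opposite in sign to -0.203 and 0.318 over all genes. These are descriptions over genes that share the same libraries and are not independent, level and length enter the same value, and their part in the differences among SR genes was not tested.

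**Figure D3:**
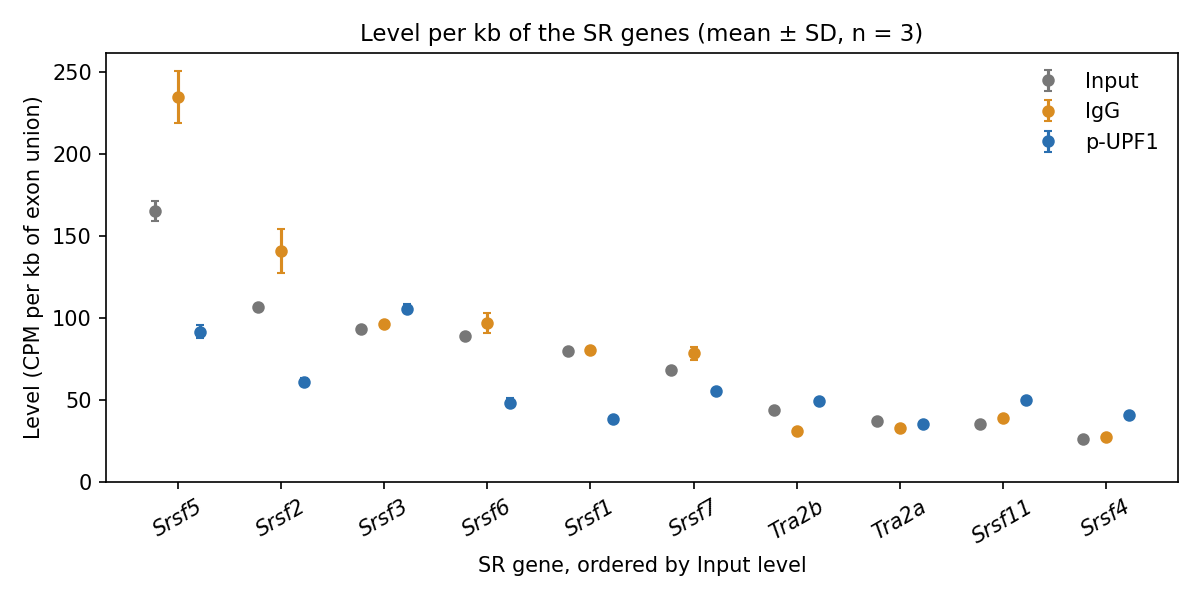
Level per kb of exon union (y axis, CPM per kb, from 0) of the SR genes, ordered by Input level, as mean ± SD of 3 libraries of Input (grey), IgG (orange) and p-UPF1 (blue). Input runs from 165 in Srsf5 to 26.5 in Srsf4, and the p-UPF1 points fall below Input for Srsf5, Srsf2, Srsf6, Srsf1 and Srsf7.

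Ratios of related genes within a library do not depend on how libraries are scaled. For Srsf4 over Srsf6 the log2 ratio of counts was 0.11, 0.15 and 0.01 in p-UPF1, -1.42, -1.50 and -1.52 in IgG, and -1.42, -1.41 and -1.43 in Input. Counts of Srsf4 were thus well below those of Srsf6 in IgG and Input and level with them in p-UPF1, a difference of 1.57 from IgG and 1.51 from Input. For Srsf3 over Srsf7 the log2 ratio was 1.10, 0.99 and 1.02 in p-UPF1, against 0.44, 0.43 and 0.35 in IgG and 0.55, 0.61 and 0.52 in Input. For Tra2a over Tra2b it was -0.94, -0.96 and -0.88 in p-UPF1, below both IgG (-0.37, -0.36 and -0.30) and Input (-0.64, -0.74 and -0.68). In these 3 pairs the p-UPF1 libraries did not overlap those of IgG or Input. For Srsf5 over Srsf6 the ratio fell by 0.36 from IgG but overlapped Input, with a difference of 0.03. Srsf1 over Srsf9, its closest relative, differed by 0.21 from IgG and 0.09 from Input. With 3 libraries against 3, the exact two-sided permutation test cannot go below p = 0.1. All comparisons without overlap had that value (adjusted p = 0.111 over 10 comparisons), so none passed 0.05, and Srsf5 over Srsf6 against Input had an exact p = 0.6 (adjusted p = 0.6).

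**Figure D4:**
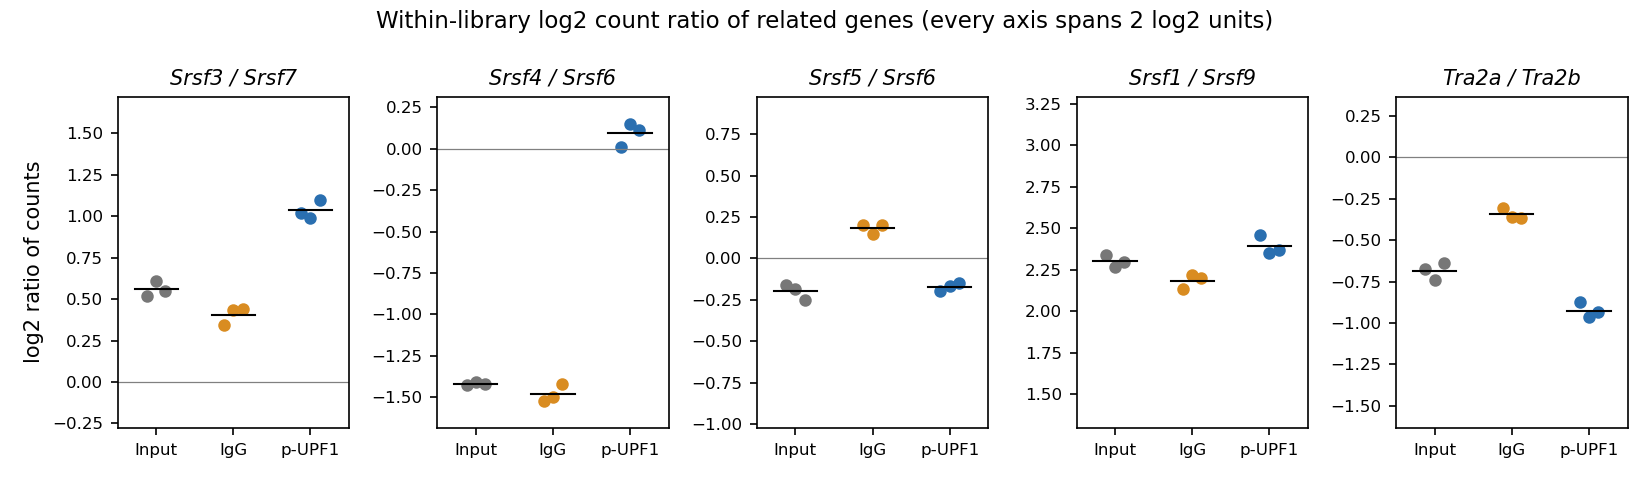
Within-library log2 ratio of the counts of 2 related genes (y axes, each spanning 2 log2 units) in the Input, IgG and p-UPF1 libraries; points are libraries and bars are means. Srsf4 over Srsf6 has a mean of 0.09 in p-UPF1, against -1.48 for IgG and -1.42 for Input, while Srsf1 over Srsf9 stays between 2.13 and 2.46 in every library.

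The wider SR pathway was read from lists of 39 other genes: SR proteins outside the 10, SR-related proteins, the kinases that phosphorylate SR domains, and partners in nuclear import and export. None of the 39 met the target criterion, which 820 (6.25%) of all genes tested met, so few would be looked for in a list of this size. Over IgG 13 were higher and 21 lower, and over Input 14 were higher and 22 lower, with medians of -0.14 and -0.21. Of all genes tested 40.4% were higher and 42.2% lower over IgG and 40.8% and 42.6% over Input, with medians of -0.03 in both. Among other SR proteins, Srsf9 was lower in p-UPF1 over IgG (log2 fold change -1.29, edgeR adjusted p = 4.78e-13) and Srsf10, which can act as a splicing repressor, was higher (0.68, adjusted p = 6.32e-11). Srsf12 had 10 to 36 counts per library and a value of 0.53 over IgG that was not called (edgeR adjusted p = 0.168). Srsf9 shares 602 exonic bases with Gatc on the opposite strand.

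Of the 24 SR-related proteins, 8 were higher and 14 lower over IgG, against 40.4% and 42.2% of all genes tested. The lowest were Pnn (pinin, a speckle protein that binds near exon junctions, -1.78, edgeR adjusted p = 1.04e-13), Luc7l3 (-1.47), U2af1 (-1.20) and Snrnp70 (-1.02), the last 2 being subunits that recognise the 3' and 5' splice sites. The highest were Rsrc2 (0.88, edgeR adjusted p = 7.63e-12), Rbm39 (0.75) and Sfswap (0.74). Srrm2 and Son, large proteins that build nuclear speckles, were at -0.30 and -0.69 over IgG, and both passed the test. Exons of Srrm2 overlap those of opposite-strand genes over 504 bases.

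Of the 9 kinases, 3 were higher and 4 lower over IgG, against the same shares of all genes tested. Clk4, a kinase of the CLK family that phosphorylates SR proteins in the nucleus, was at 0.56 over IgG and 1.20 over Input (edgeR adjusted p = 1.23e-11), the highest value of any list gene over Input. Srpk1, which phosphorylates SR proteins in the cytoplasm, was lower over IgG (-0.60, adjusted p = 4.69e-10). Clk1 was not called over IgG (0.11, adjusted p = 0.119) and was higher over Input (0.50, adjusted p = 9.94e-07). In IgG over Input 8 of the 9 kinases were higher, with a median of 0.32, where 18.2% of all genes tested were higher and 34.7% lower, with a median of -0.10. Tnpo3, the importin that carries SR proteins into the nucleus, was at 1.17 over IgG and 1.12 over Input (edgeR adjusted p = 5.8e-14), and was the list gene that passed the minimum fold over IgG without passing that over Input. It shares 251 exonic bases with Irf5 on the opposite strand. The mRNA export factors Nxf1 and Nxt1 were lower over IgG, at -0.68 and -2.14.

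**Figure D5:**
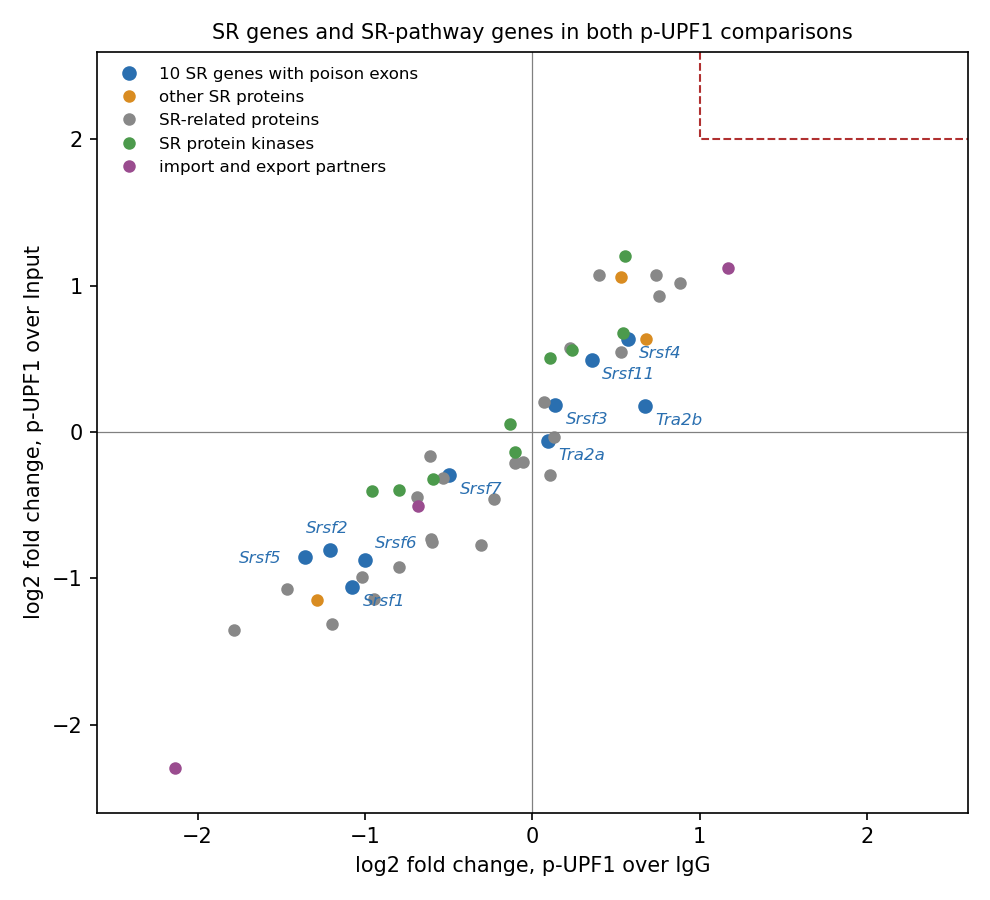
log2 fold change over IgG (x axis) and over Input (y axis) of the 10 SR genes (blue, named) and of 39 SR-pathway genes, coloured by list; both axes share the p-UPF1 libraries. The red dashed corner marks the target criterion of 1 over IgG and 2 over Input, and no gene of any list lies inside it.

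The genes whose profile over the 9 libraries was most like the mean profile of the 10 SR genes were Tm9sf1, Ncapd3, Cars, Fyn and Tanc1, by Euclidean distance of centred log2 CPM among 8935 genes at a mean of at least 10 CPM. Their distances were 0.0877 to 0.132, and their log2 fold changes over IgG were -0.33 to -0.25. Of the SR genes Srsf7 was closest to this mean profile, at 0.221, and Srsf5 (1.27), Srsf4 (1.26) and Tra2b (1.24) were farthest.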

How the data were processed

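RIP-seq libraries of activated mouse splenic B cells (3 Input, 3 IgG, 3 p-UPF1) were compared from the table of raw read counts per gene that the authors deposited. The submitters' notes name cutadapt, HISAT2, featureCounts and mm10. Versions, and the strand setting for these libraries, were not given in the sources used here. The kit was directional, and no molecular identifiers were used, so PCR copies count separately. Columns were assigned to groups by name. Genes were filtered with filterByExpr (minimum count 10), scaled by TMM and tested with edgeR 4.0.16 in R 4.3.3 (glmQLFit and glmQLFTest, all 9 libraries, Benjamini-Hochberg over 13129 genes, threshold 0.05). The script was tested on simulated data. DESeq2 1.42.0, limma 3.58.1 (voom), other scalings, filters leaving out each library and a block on the column letter were alternatives. Gene symbols, exons and sequences came from RefSeq GRCm38.p6, and transcript types from GENCODE M21. Named genes were the members, the fixed lists and the 5 nearest profiles. The members and lists were chosen with earlier results of these data known.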

Additional observations from a re-analysis of the deposited data

How the results depend on the processing

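Of 600 recomputed log2 fold changes of the 10 SR genes (30 values under 20 alternatives), 551 kept their direction and their side of the threshold, 42 crossed the threshold in the same direction and 7 changed sign. Sign changes were Srsf3 over IgG (-0.0257 with library size alone and -0.0005 with upper-quartile factors), Tra2a over IgG (-0.0679 and -0.0428 with the same settings), Tra2a over Input (0.0639 with an IgG library as TMM reference, 0.0687 with no low-count filter) and Srsf1 in IgG over Input (-0.0111 without IgG library A, and up to 0.0241 without other single libraries). Relative to the all-gene median, Srsf3 and Tra2a over IgG and Srsf1 in IgG over Input kept their sign under all 20 alternatives. Tra2a over Input kept its sign under 19. The cause was not tested. No SR gene and no list gene met the target criterion under any alternative, where 6.25% of all genes tested met it in the main fit.

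In IgG over Input, 8 SR genes were higher and 1 lower with library size alone, with an Input or IgG library as TMM reference, and with only the compared groups fitted. With upper-quartile factors or no filter, 1 was lower. The all-gene median moved as well: it was -0.1018 in the main fit and -0.0021 to 0.0134 under the settings with 8 higher. It was -0.0323 with upper-quartile factors, -0.0483 with no filter and -0.0718 with DESeq2 or its size factors. The share of all genes called under each alternative is not given here, so these counts are not read as a change particular to SR genes. Without single libraries 3 to 5 were higher and 2 lower, the 3 without Input library B or C. List genes lower in IgG over Input numbered 6 with DESeq2 or its size factors, 2 with library size alone, 3 with upper-quartile factors, and also 2 with an Input or IgG library as TMM reference, no filter, or only the compared groups, and 6 to 10 without single libraries (6 without Input library B), against 10.

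The labels number the replicates and the table letters its columns, so no number pairs the libraries. A fit with the column letter as replicate block, chosen after seeing the data, left the SR genes at 4 higher and 5 lower over IgG and over Input and 5 higher and 2 lower in IgG over Input, and changed none of their calls. Over all genes it called 5328 higher and 5547 lower over IgG, against 5299 and 5546 without it. Deviations from the group mean correlated at -0.005 to 0.054 for libraries of the same letter and -0.056 to 0.022 for others, and 6 of 9 libraries correlated best with their own letter. Between libraries of a group the counts differed by 1.38 to 9.94 times counting noise (chi-square per degree of freedom over genes), so no library was a copy of another. The range was 1.38 to 1.73 for Input, 2.83 to 4.04 for p-UPF1 and 4.64 to 9.94 for IgG. The IgG libraries thus varied most, while all 3 groups shared one estimate of the spread in the fit.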
